A study of Mus musculus with 6 samples.

Results

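Vascular growth factors and surface genes of the endothelium, the cell layer that lines blood vessels, were examined in the reloaded soleus, a postural hindlimb muscle. The genes were 5 ligands (Vegfa, Vegfb, Pgf, Angpt1 and Angpt2) and 4 endothelial genes (Kdr, Pecam1, Cdh5 and Cd34). They were taken by name from the annotation of the array, which names each of the 9 on 1 of its 223 probes. The series holds 6 mice of the 129/SV strain labelled WT, and every mouse had 7 days of hindlimb suspension followed by 1 day of reloading. No unloaded or untreated muscle is among the 6 samples, so no effect of reloading could be measured. Each array carries RNA from muscle belly cryosections of 1 mouse, and the samples are called here by the numbers in their titles, 175, 176, 177, 178, 202 and 203.

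Vascular endothelial growth factor A, encoded by Vegfa, drives the sprouting and survival of capillaries and is released by muscle fibres among other cells. Its main signalling receptor on endothelium is Kdr, whereas its relatives Vegfb and placental growth factor (Pgf) bind the receptor Flt1. The angiopoietins act through another endothelial receptor, Tek: Angpt1 keeps vessels quiet and stable, and Angpt2, which endothelial cells make themselves, counters it in many settings. Pecam1 and Cdh5 are adhesion molecules of the contacts between endothelial cells. Cd34 is a surface sialomucin of capillary endothelium that blood progenitors, satellite cells and interstitial fibroblasts also carry.

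Each signal is a share, in per mille, of what 221 probes gave together on that array. The floor is the 10th percentile of its signals, 0.5 to 0.7 per mille, and a signal of at least 2 times that level counts as clear of the floor. Between 68 and 88 probes were clear on an array. Signals and floors come in steps of 0.1 per mille, so a dim probe takes few distinct values. The muscle fibre markers Myh7, Mb, Des and Ttn each cleared the floor in all 6 mice, with a summed signal of 166 to 202 per mille. Of 9 endothelial markers 6 were on the array (Pecam1, Cdh5, Kdr, Flt1, Tek and Nos3), with a summed signal of 5.7 to 8.9 per mille. Pecam1 was clear of the floor in all mice and Cdh5 in some, and Kdr, Flt1, Tek and Nos3 were clear in none. Spots differ in primer efficiency and most of these endothelial probes had no readable level, so the sums do not compare the cell types. For a difference between mice in whole muscle, the number of endothelial cells and the RNA per endothelial cell cannot be told apart.

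Of the genes clear of the floor in every mouse, the ligand Vegfb and the endothelial gene Cd34 have an entry in a table of promoters from RefSeq (GRCm38.p6), which held 5 of the 9 genes. The 250 bases before each start are shown to set the ligand and the endothelial gene side by side. Capitals mark GGGCGG, the GC box bound by Sp1, on either strand. The Vegfb window is chr19:6987652-6987901 on the minus strand and the Cd34 window chr1:194938571-194938820 on the plus strand, and both are printed in the direction of the gene.
Vegfb: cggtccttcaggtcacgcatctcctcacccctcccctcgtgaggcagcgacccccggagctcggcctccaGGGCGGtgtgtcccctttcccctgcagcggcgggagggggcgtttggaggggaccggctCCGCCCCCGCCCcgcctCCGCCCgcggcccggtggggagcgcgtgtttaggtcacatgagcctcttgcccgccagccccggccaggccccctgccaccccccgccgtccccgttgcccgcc
Cd34: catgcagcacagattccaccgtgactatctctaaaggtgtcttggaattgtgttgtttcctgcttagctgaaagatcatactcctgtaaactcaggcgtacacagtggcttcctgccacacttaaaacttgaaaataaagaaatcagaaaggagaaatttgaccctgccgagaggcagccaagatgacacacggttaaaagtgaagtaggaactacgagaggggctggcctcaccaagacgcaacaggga
The Vegfb window is 76.4% G and C and holds the GC box 4 times, whereas the Cd34 window is 46.4% G and C and holds it 0 times. GC boxes were present in 32.7% of 32851 windows of the same length, whose median G and C content was 52.4%. The hypoxia response core ACGTG, searched on both strands, was in neither window and in 16.6% of all windows. These matches describe the letters only.

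In all 6 mice 3 of the 9 genes were clear of the floor, which compares with 25.6% of all probes on the array: the ligand Vegfb and, on the endothelial side, Pecam1 and Cd34. Angpt2 and Cdh5 were clear in some mice. Vegfa, Pgf, Angpt1 and Kdr were clear in no mouse, as were 54.3% of all probes, and at signals so close to the floor neither expression nor its absence can be called. Ligands were thus clear in all mice for 1 of 5 genes and endothelial genes for 2 of 4, groups too small to set apart. The median over the 5 ligands was 1.17 to 1.60 times the floor across mice, and the median over the 4 endothelial genes 2.07 to 3.67 times the floor. Spots differ in primer efficiency, so these medians do not rank the transcripts.

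**Figure D1:**
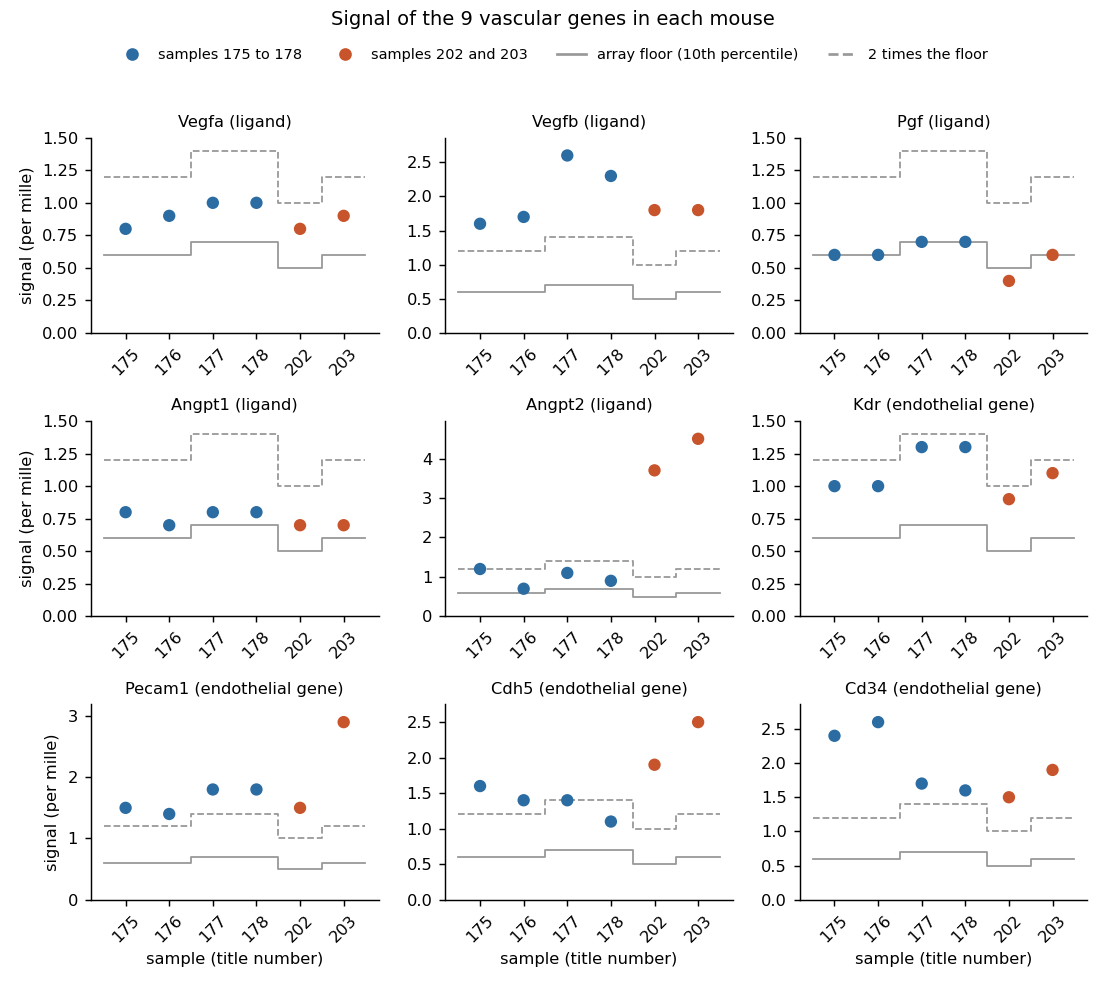
Signal (per mille, y axis from 0, scales differ between panels) of each of the 9 genes in each of the 6 mice (x axis, title number); each point is 1 array. The solid grey line is the floor of that array and the dashed line 2 times the floor. Angpt2 sits at 3.7 and 4.5 per mille in samples 202 and 203 and at 0.7 to 1.2 in the others, and Vegfa, Pgf, Angpt1 and Kdr lie under the dashed line in every mouse.

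Among Vegfa, Vegfb and Pgf, Vegfb alone was clear of the floor. It gave 1.6, 1.7, 2.6 and 2.3 per mille in samples 175, 176, 177 and 178, and 1.8 per mille in both sample 202 and sample 203. Samples 177 and 178 were the high ones, and samples 202 and 203 lay inside the range of the other 4. Its mean was 1.97 ± 0.393 per mille (SD, n = 6), or 3.18 ± 0.422 times the floor. Vegfb has been linked to the uptake of fatty acids by the endothelium of muscle and heart.

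Vegfa gave 0.8, 0.9, 1.0 and 1.0 per mille in samples 175 to 178, and 0.8 and 0.9 per mille in samples 202 and 203. All 6 values lay within 2 steps of each other, and the mean was 1.47 ± 0.0902 times the floor (SD, n = 6). Pgf gave 0.6, 0.6, 0.7 and 0.7 per mille in samples 175 to 178, and 0.4 and 0.6 per mille in samples 202 and 203. In 5 of 6 mice the Pgf signal equalled the floor of its array, and in sample 202 it was 0.8 times the floor. The Pgf probe therefore carried no readable signal above the dimmest spots of the array.

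The angiopoietins differed in their spread between mice. Angpt1 gave 0.8, 0.7, 0.8 and 0.8 per mille in samples 175 to 178, and 0.7 per mille in samples 202 and 203. Its SD of 0.11 on the log2 scale ranked 220 of 223 probes from the widest, at a signal of 1.23 ± 0.112 times the floor (SD, n = 6) and 1 step between the lowest and the highest mouse. Angpt2 gave 1.2, 0.7, 1.1 and 0.9 per mille in samples 175 to 178, against 3.7 and 4.5 per mille in samples 202 and 203. The groups of mice did not overlap, and in samples 202 and 203 the signal was 7.4 and 7.5 times the floor. Its SD of 1.12 on the log2 scale was rank 2 of 223, and it was 0.35 over samples 175 to 178 alone, against a median of 0.18 for all probes in those 4 mice.

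The log2 ratio of Angpt2 to Angpt1 within an array, which does not move with the scaling of that array, was followed over the mice. It was 0.58, 0, 0.46 and 0.17 in samples 175, 176, 177 and 178, and 2.40 and 2.68 in samples 202 and 203. Its mean was thus 2.24 higher in samples 202 and 203, and the lower samples had an SD of 0.27. With 50% of the floor subtracted from each array this difference was 2.70, and with 0.6 per mille added to each signal 1.66. Angpt1 was clear of the floor in no mouse and Angpt2 was not clear in 3 of the 4 lower mice, so the ratio restates the higher Angpt2 signal over a denominator near the floor, and its size is not a measure of the change in RNA.

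Kdr, the receptor for Vegfa, gave 1.0, 1.0, 1.3 and 1.3 per mille in samples 175 to 178, and 0.9 and 1.1 per mille in samples 202 and 203. It stayed between 1.67 and 1.86 times the floor in every mouse. Pecam1 gave 1.5, 1.4, 1.8 and 1.8 per mille in samples 175 to 178, and 1.5 and 2.9 per mille in samples 202 and 203. Sample 203 was the highest and sample 202 lay inside the range of the first 4. The Pecam1 mean was 1.82 ± 0.556 per mille (SD, n = 6).

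Cdh5, which encodes VE-cadherin, gave 1.6, 1.4, 1.4 and 1.1 per mille in samples 175 to 178, and 1.9 and 2.5 per mille in samples 202 and 203. Samples 202 and 203 lay above all others, and sample 178 was the only mouse in which Cdh5 was not clear of the floor, at 1.57 times it. Cd34 gave 2.4, 2.6, 1.7 and 1.6 per mille in samples 175 to 178, and 1.5 and 1.9 per mille in samples 202 and 203. The high mice of Cd34 were samples 175 and 176, which were not high for Pecam1 or Kdr. For Cdh5 sample 175 was the highest of samples 175 to 178, though below samples 202 and 203. The Cd34 mean was 1.95 ± 0.451 per mille (SD, n = 6).

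**Figure D2:**
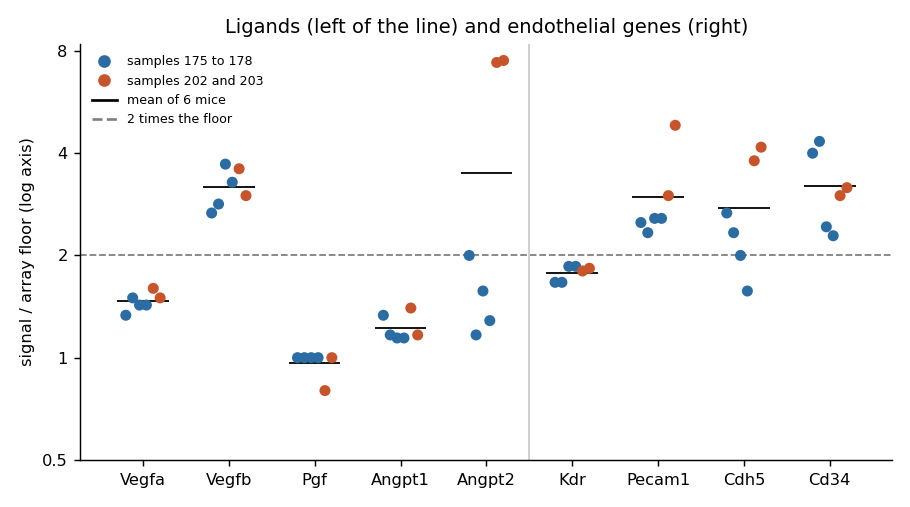
Signal divided by the floor of the array (y axis, log scale) for the 5 ligands, left of the vertical line, and the 4 endothelial genes, right of it; each point is 1 mouse, the black bar the mean of 6 mice and the dashed line 2 times the floor. All points of Vegfb, Pecam1 and Cd34 lie above the dashed line, and Angpt2 reaches 7.4 and 7.5 times the floor in samples 202 and 203.

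The spread of the 9 genes on the log2 scale ran from 0.11 for Angpt1 to 1.12 for Angpt2, with a median of 0.30 against 0.27 for all 223 probes. In between, in rising order, were Vegfa (SD 0.14), Kdr (0.22), Vegfb (0.27), Pgf (0.30), Cd34 (0.32), Pecam1 (0.38) and Cdh5 (0.41). The median SD of the ligands was 0.27 and that of the endothelial genes 0.35. With 1 array per mouse, the spread between mice includes that between labellings and arrays. The SD of Pgf, whose signal equalled the floor in most mice, was 0.04 after quantile normalization, 0.13 with arrays divided by their floor, 0.19 after centring arrays on the median and 0.46 with 50% of the floor subtracted.

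The title numbers form separate runs, 175 to 178 and 202 to 203, whose meaning no label gives. Their comparison answers whether the vascular genes differ between them and is not a comparison of treatments. In limma, with Benjamini-Hochberg adjustment over 223 probes, 4.48% of probes were higher and 1.79% lower in samples 202 and 203, and the median difference of all probes was -0.18 on the log2 scale. Of the 9 genes, Angpt2 alone passed. It was higher by 2.10 on the log2 scale (SE 0.22, limma adjusted p = 7.17e-06), in both of samples 202 and 203 against all 4 others. Since Angpt2 lay near the floor in most of samples 175 to 178, this size depends on how the floor is treated, and it was 1.58 to 2.62 over the other scalings, the background subtraction and the pseudocount. Without sample 202 the limma adjusted p was 0.0794 and without sample 203 it was 0.0551, with a lone sample in that run assumed to vary like the others. In those fits 0 probes of the array passed as higher, while 40 and 78 had an unadjusted p under 0.05.

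Cdh5 was higher by 0.68 in samples 202 and 203 (SE 0.21, limma adjusted p = 0.0548) and missed the threshold, although both mice lay above all others. It passed without sample 177 (limma adjusted p = 0.0463), and its limma adjusted p was 0.0518 to 0.190 under the other alternatives. Both mice lay above all 4 others in 2 of the 9 genes, Angpt2 and Cdh5, and in 7.17% of all probes, and both lay below all 4 others in 0 of the 9 genes and in 13.9% of all probes. Pecam1 differed by 0.37 (95% interval -0.13 to 0.87), a value that came from sample 203 and was -0.11 without it. Kdr differed by -0.20 (95% interval -0.62 to 0.23) and Cd34 by -0.27 (95% interval -0.74 to 0.21). The ligands Vegfa, Vegfb, Pgf and Angpt1 differed by -0.12, -0.16, -0.40 and -0.14. None of these 4 ligands passed, and the differences of Vegfa, Vegfb and Angpt1 lay closer to the median of all probes, -0.18, than their SE. With arrays divided by their floor the differences of Vegfa, Vegfb, Angpt1 and Kdr turned positive (0.12, 0.085, 0.098 and 0.046).

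**Figure D3:**
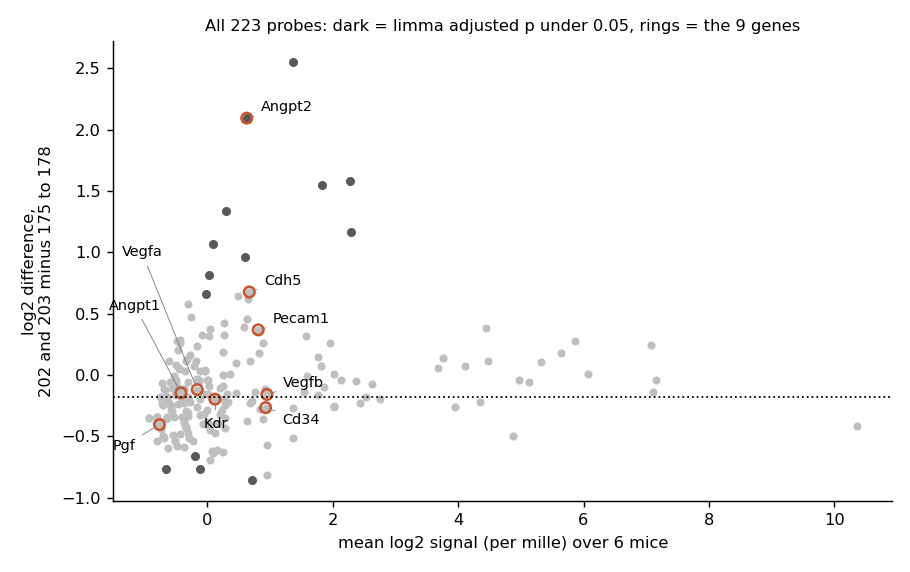
Mean log2 signal over the 6 mice (x axis) against the log2 difference of samples 202 and 203 from samples 175 to 178 (y axis) for the 223 probes. Dark points passed a limma adjusted p of 0.05, rings mark the 9 genes and the dotted line is the median difference of -0.18. Angpt2, at 2.10, is the only ringed point that is dark, and Cdh5 follows at 0.68.

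Beyond these 9 genes, 25 of 38 genes of 5 lists on vessel growth were on the array. Of the 25, 4 cleared the floor in all mice, 5 in some and 16 in none, where 25.6% of all probes were clear in all mice and 54.3% in none. In limma 2 passed as higher in samples 202 and 203, against 4.48% of all probes. The pair were Ang, which encodes the angiogenic ribonuclease angiogenin, at 0.8, 1.3, 0.8 and 0.8 per mille in samples 175 to 178 and 2.0 and 2.6 in samples 202 and 203, and its relative Ang2. Ang was higher by 1.34 (SE 0.23, limma adjusted p = 0.000912) and Ang2 by 0.82 (SE 0.18, limma adjusted p = 0.00997). The symbols Ang2 and Angpt2 denote different genes.

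In the list of further VEGF ligands and of receptors, 0 of 5 genes passed. Vegfd, a ligand of lymphatic and blood vessels, gave 1.5, 1.0, 1.5 and 1.5 per mille in samples 175 to 178 and 1.8 and 2.4 in samples 202 and 203, a difference of 0.62 (SE 0.22, limma adjusted p = 0.106), and was clear of the floor in 5 of 6 mice. The lymphatic ligand Vegfc was clear in no mouse, at 0.667 ± 0.121 per mille (SD, n = 6). Tek, the receptor of both angiopoietins, chosen after its values were seen, was clear in no mouse either, at 0.733 ± 0.137 per mille (SD, n = 6). The receptor was thus not readable on the arrays where its ligand Angpt2 was high.

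The hypoxia regulators did not pass either. Hif1a, the oxygen-sensitive subunit of hypoxia-inducible factor, differed by -0.33 (limma adjusted p = 0.272), and its partner Arnt by 0.0021 (limma adjusted p = 0.991). Of the inhibitors of vessel growth, 0 of 3 passed: the thrombospondins Thbs1 and Thbs2 differed by -0.32 and -0.58 (limma adjusted p-values 0.314 and 0.127), with both clear in no mouse. In the list of endothelial enzymes and capillary genes 3 of 6 were clear in all mice, against 25.6% of all probes. The clear genes were Fabp4, Cd36 and Lpl, while Nos3, Tek and Vcam1 were clear in no mouse. Of the 6, 0 passed, against 4.48% of all probes higher and 1.79% lower. Nos3, the endothelial nitric oxide synthase, gave 0.65 ± 0.122 per mille (SD, n = 6). Fabp4, a fatty acid binding protein of capillaries and fat cells, gave 5.55 ± 1.23 per mille (SD, n = 6) and differed by -0.23 (limma adjusted p = 0.563). The median difference was -0.23 over the 25 genes, against -0.18 over all probes.

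**Figure D4:**
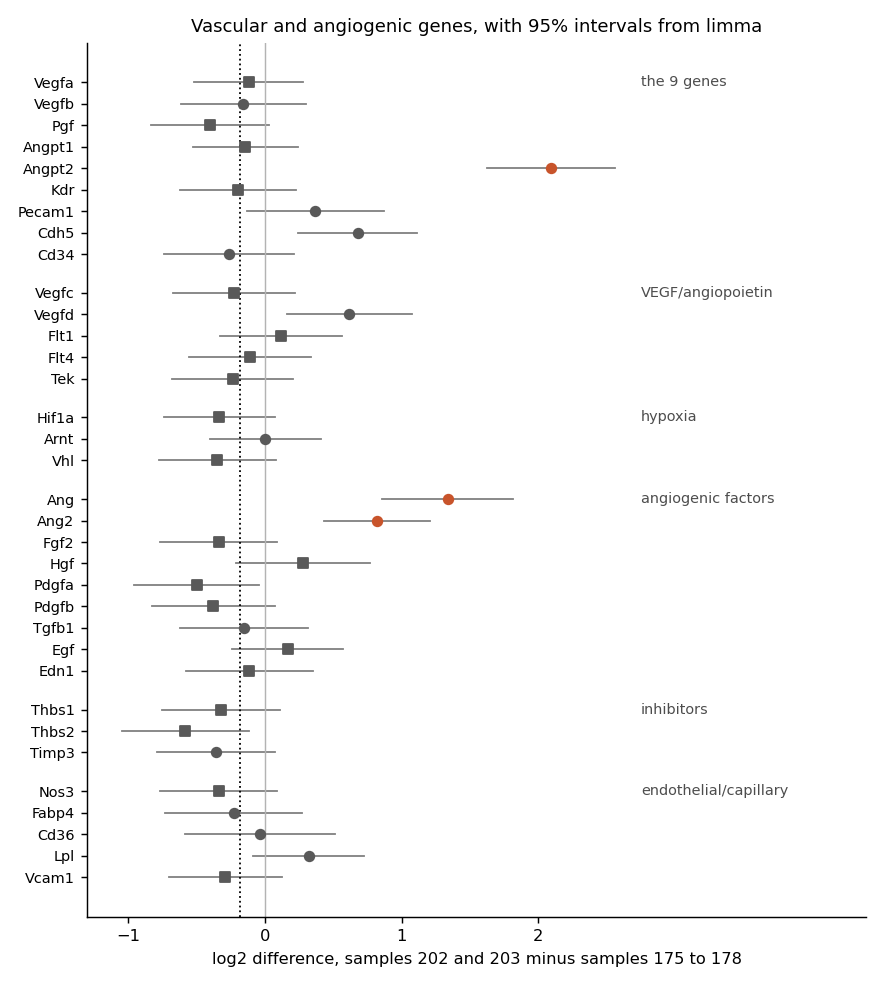
Log2 difference of samples 202 and 203 from samples 175 to 178 (x axis) with its 95% interval from limma, for the 9 genes and the 25 measured genes of the 5 lists, where Tek is drawn once. Orange marks a limma adjusted p under 0.05, squares a gene clear of the floor in no mouse and the dotted line the median of all probes, -0.18. Angpt2, Ang and Ang2 are the orange points.

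Other cell types could be followed on few probes. The pericyte marker Pdgfrb gave 1.1 to 1.5 per mille in samples 175 to 178 and 0.9 to 1.2 in samples 202 and 203, and the fibroblast marker Pdgfra 1.0 to 1.5 and 0.8 to 1.1. Il1b, of the leukocyte list, was at 0.5 to 0.7 per mille throughout and clear in no mouse. These were the only measured genes of the 3 lists, of which the smooth muscle and leukocyte lists hold 6 genes each and the fibroblast list 5, and their part in the differences above was not tested. The blood and fat cell lists had 0 measured genes. Of the satellite cell list 2 of 3 genes were measured. Myf5 gave 0.5 to 0.9 per mille over the 6 mice and was clear in no mouse. Myod1 gave 0.8 to 1.3 per mille and was clear in sample 203 alone.

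Covariation over the 6 mice was examined for pairs of the 9 genes. Angpt2 and Cdh5 separated samples 202 and 203 from the others, so their pairs with the other genes were left out, which left 21 of 36 pairs. Of these 21, 4 had an unadjusted p under 0.05 with r above 0 (exact permutation test over 720 pairings, two-sided), against 12.2% of all 24753 pairs of probes. After Benjamini-Hochberg adjustment over all pairs of probes 0 passed, the smallest adjusted p being 0.254. The median r of the 21 pairs was 0.38 and that of all pairs 0.37. The pairs of all probes, unlike the 21, kept the probes that separate samples 202 and 203 from the others. The share and the median are therefore only a rough comparison.

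All 4 pairs joined Kdr or Vegfa with another gene of the VEGF group. The probes of Vegfa, Pgf and Kdr stayed below 2 times the floor on every array, and Pgf mostly equalled the floor. Each of the 4 pairs thus holds a gene without a readable level. Their r, rho and p values describe stepped signals near the floor and are not read as relations of the genes. Vegfa and Kdr had r = 0.93 (exact permutation p = 0.0444, adjusted p = 0.306) and rho = 0.92 (exact permutation p = 0.0444, adjusted p = 0.377). Without samples 175 and 202, the farthest from the median of Vegfa, r was 0.95. Pgf and Kdr had r = 0.85 (exact permutation p = 0.0167, adjusted p = 0.254) and rho = 0.95 (exact permutation p = 0.0167, adjusted p = 0.332), with r = 0.93 without samples 177 and 202. Vegfa and Pgf had r = 0.78 (exact permutation p = 0.0333, adjusted p = 0.271) and rho = 0.90 (exact permutation p = 0.0667, adjusted p = 0.377). Without samples 175 and 202 that r was 1, over 4 mice with tied values.

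Vegfb and Kdr had r = 0.86 (exact permutation p = 0.0389, adjusted p = 0.305) and rho = 0.72 (exact permutation p = 0.144, adjusted p = 0.493). Without samples 177 and 178 that r was -0.03, so the high r rested on those mice. With pairings permuted only within the number runs, 0 of the 21 pairs had a p under 0.05, and neither run holds the 6 mice that a value of its own would need.

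The array floor was set beside these signals. Over the 6 arrays its correlation with Pgf was r = 0.96 and with Kdr r = 0.95 (exact permutation p = 0.0167 for both, adjusted p = 0.0808 over 223 probes). Neither passed after adjustment. Pgf equalled the floor in every mouse but sample 202, so its high r follows from that and its p tests nothing. The median r with the floor over all probes was 0.70. With arrays divided by their floor, Vegfa and Kdr had r = 0.26, Vegfa and Pgf r = -0.71, Pgf and Kdr r = -0.12, and Vegfb and Kdr r = 0.78, each with an exact permutation p of 0.0944 or more. Pgf divided by the floor was 0.8 in sample 202 and 1 in every other mouse, so its r values there rested on that sample alone. In that setting the only pair of the 21 with a p under 0.05 was Kdr and Cd34, at r = -0.93 (exact permutation p = 0.0111, not adjusted), against r = -0.31 (exact permutation p = 0.544) as deposited. Kdr spanned only 1.67 to 1.86 times the floor there and was clear in no mouse, and the same stepped floor divides both genes. This r is therefore not read as a relation of the 2 genes. The endothelial genes Pecam1 and Kdr had r = 0.38 and Pecam1 and Cd34 r = -0.26 as deposited (exact permutation p = 0.50 and 0.694).

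**Figure D5:**
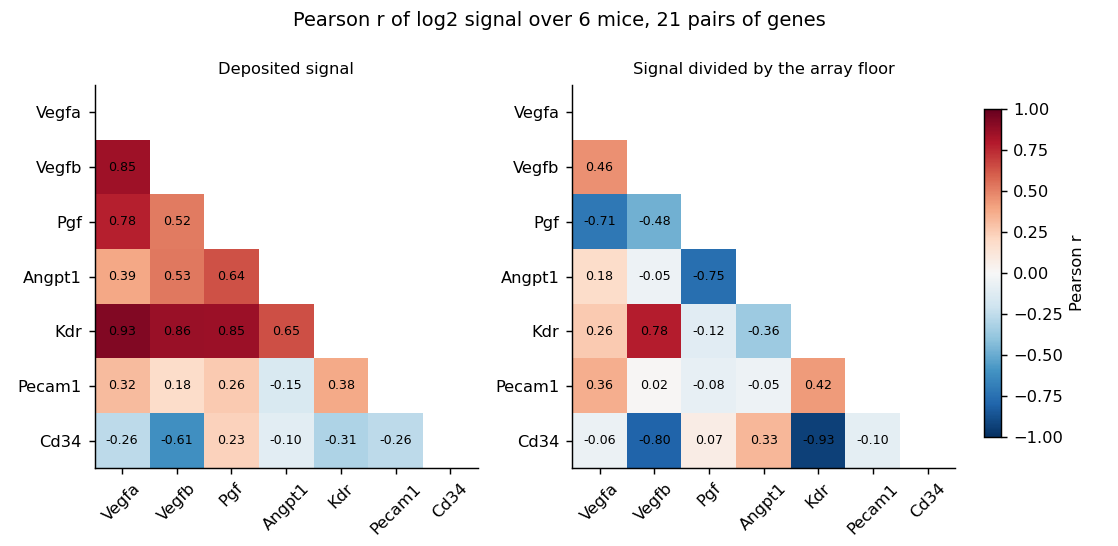
Pearson r of log2 signal over the 6 mice for 21 pairs of 7 genes, with the deposited signal (left) and with each array divided by its floor (right); colour and printed value both give r. The red block among Vegfa, Vegfb, Pgf and Kdr on the left, with Vegfa and Kdr at 0.93, is mostly gone on the right, where that pair has 0.26.

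The probes most like Angpt2 and Pecam1 over the mice, among named probes clear of the floor in at least 2 mice, were found by Pearson r of log2 signal. For Angpt2 they were Igfbp6, a binding protein of insulin-like growth factors, at r = 0.99, Ang2 at r = 0.96 and the cytokine receptor chain Csf2rb2 at r = 0.95. These r values describe the choice, since samples 202 and 203 separate from the others in all of these genes. Ang2 and Csf2rb2 were clear of the floor only in samples 202 and 203, and Igfbp6 in all 6 mice. Igfbp6 gave 4.3, 3.2, 4.1 and 3.5 per mille in samples 175 to 178 and 7.2 and 9.8 in samples 202 and 203, the same order of mice as Angpt2 (rho = 1). That rho too describes the choice. It did not pass in the exact permutation test adjusted over all pairs of probes (adjusted p = 0.332).

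For Pecam1 the most alike probes were a probe of Igf1 at r = 0.99 and the immediate early gene Jun at r = 0.97, with rho = 0.99 and 0.91. These values too describe the choice, since the probes were picked for their high r. Neither passed in the exact permutation test adjusted over all pairs of probes (adjusted p = 0.254 for both r, 0.332 and 0.366 for rho). Both cleared the floor in every mouse. Without samples 176 and 203 the values of r were 0.90 and 0.58. The third was the vascular laminin chain Lama4 at r = 0.96, a description only, since Lama4 was clear of the floor only in samples 202 and 203. Sample 203 was the highest mouse for all of them. This Igf1 probe, 22H, gave 1.3, 1.2, 1.5 and 1.5 per mille in samples 175 to 178 and 1.4 and 2.3 in samples 202 and 203. The other Igf1 probe, 16I, gave 1.0, 1.0, 0.9 and 0.9 per mille in samples 175 to 178 and 1.0 and 1.4 in samples 202 and 203, so it shared the high sample 203 but was lowest in samples 177 and 178.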

How the data were processed

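Total RNA (4 micrograms per mouse) was reverse transcribed with gene-specific primers and a radioactive nucleotide, per the labels' protocols. The values the authors deposited are linear signals, 1 column per mouse; the scanner and the treatment of background and scale are not given in the sources used. Without probes 1M and 1O the values sum to about 1 on every array, so the signal is treated as a part of that total, in per mille. Gene names came from the platform annotation (205 probes with 1 gene, 0 with several, 18 with none), updated by gene number through RefSeq (GRCm38.p6).

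Log2 signals were tested with limma 3.58.1 (lmFit, eBayes) in R 4.3.3, with Benjamini-Hochberg adjustment over 223 probes. Correlations used exact permutation in Python 3.11.15. The limma step was tested on simulated data. With no label on separate processing, p-values measure only the spread between these 6 samples and precision is limited by there being 6 arrays. The genes and lists, the most-alike rule (3 probes each for Angpt2 and Pecam1) and the naming of the first measured genes of each list were chosen with earlier results of these data known. Alternatives were other scalings, background subtraction, a pseudocount, a filter on the dimmest 25% of probes, other definitions of the floor and leaving out each mouse.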

Additional observations from a re-analysis of the deposited data

Results flagged for a closer look

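In 3 of 20 sets of 6 values, on the log2 scale, the gap between an extreme mouse and its nearest neighbour was a larger part of the range than Dixon's test at 95% allows for 6 mice. Chance gives about 1 in 20 for separate sets, and these share the same arrays. Sample 203 was highest in Pecam1 (gap 0.655 of the range). Sample 202, whose array had the lowest floor, was lowest in Pgf (0.725) and in Hif1a (0.710), both clear of the floor in no mouse.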

How the results depend on the processing

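The count of 3 genes clear of the floor in all mice was 5 at 1.5 times the floor and 0 at 3 times, 3 with the floor at the 5th or 20th percentile or without samples 202 and 203 (added after seeing the data), and 3 to 4 without 1 mouse. The median SD of the 9 genes was 0.19 to 0.39 over all alternatives. The count of probes that differed between the number runs, 14, was 22 with arrays divided by their floor and 0 to 20 without 1 mouse (0 without sample 202, where limma gave 40 probes an unadjusted p under 0.05, 2 without sample 203, 5 without 176 and 8 without 175). With each array divided by its floor 19 were higher and 3 lower, against 10 and 4. Among the 9 genes it was 1 and became 0 to 2 without 1 mouse (0 without sample 202 or 203). Signs turned in differences that did not pass: with quantile normalization Vegfa was at 0.0073 and Angpt1 at 0.071, with arrays divided by their floor Vegfa at 0.12, Vegfb at 0.085, Angpt1 at 0.098 and Kdr at 0.046. Without 1 mouse Pecam1 was at -0.11 (without sample 203) to 0.84 (without sample 202). The count of 4 of 21 pairs was 1 with arrays centred on their median, 1 with quantile normalization, 1 with arrays divided by their floor, 2 with 50% of the floor subtracted, 2 of 15 without the dimmest probes (Pgf drops out), 2 by Spearman's rho, 0 within number runs and 0 to 3 without 1 mouse. Within number runs tied signals kept the p of the 4 pairs at 0.0833 or more, so none of them could pass. The r of Vegfa and Pgf turned to -0.61 and that of Pgf and Kdr to -0.38 with quantile normalization, and to -0.71 and -0.12 with arrays divided by their floor. In the latter setting only sample 202 differed from the other mice in Pgf, so the sign rested on 1 array. The difference of 2.24 in the ratio of Angpt2 to Angpt1, whose denominator is near the floor in every mouse, was 2.70 with 50% of the floor subtracted, 1.66 with 0.6 per mille added and 2.10 to 2.38 without 1 mouse. Causes were not tested. Probes near the floor have no readable level. No paired analysis was possible because all samples form 1 group.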
